A study of Mus musculus with 4 samples.

Results

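The immediate early growth response genes followed here are 10 mouse genes read by 12 probe sets, of 45101 probe sets on the array. They were taken by probe set number from a list that pairs each number with a gene: Fos, Fosb, Jun and Junb, Egr1 and Egr2, Myc, Ier2, Ier3 and Dusp1. Jun and Egr2 have 2 probe sets each, which read the same transcript and are not separate evidence. All 12 were found. Expression was measured in cultured mouse fibroblasts of the C57BL/6 strain, which the labels call epithelial fibroblasts. There were 4 arrays: 2 came from wild type cells, and 2 came from SIN1 KO cells, in which the SIN1 gene was ablated. Both genotypes were grown in DMEM, and the labels name no stimulus, no serum level and no time point. Whether arrays of the same genotype stand for separate cultures, lines or embryos is not given there. The p-values below therefore reflect the spread of these arrays alone, which may be technical.

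Immediate early genes are transcribed within minutes of a growth factor, serum or stress signal, without new protein synthesis, and most of their messenger RNAs are short-lived. In fibroblasts the signal reaches them largely through the RAS, RAF and ERK kinases and the serum response factor SRF, and also through CREB. SIN1, encoded by Mapkap1, is a subunit of mTOR complex 2, a kinase complex that acts on AKT, SGK and PKC. Several of the products are transcription factors, and Dusp1 is a phosphatase that shuts off the MAP kinases which induce it.

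Values are log2 expression from RMA, a method that corrects background, normalizes arrays and summarises probes into probe sets, so 1 unit is a 2-fold difference. The array medians lay between 4.23 and 4.32. A background level was set on each array as the highest of its 27 Bacillus subtilis control probe sets, and ran from 3.75 to 4.27. Wild type 2 and SIN1 KO 2 stood apart from the other arrays: wild type 2 held the lowest value of 37.6% of the 45037 tested probe sets, and SIN1 KO 2 the highest of 37.2%. At or below the background level lay 43.5% (SIN1 KO 1) to 49.5% (SIN1 KO 2) of the tested probe sets. Medians and shares over all tested probe sets include these, while nearly all members were above background. Differences that moved much with a single array are also given without it. Because no table used here pairs other probe sets with genes, the ablated gene, fibroblast and epithelial markers and other immediate early genes were not analysed here, and the genotype and cell type labels were not checked. In such bulk samples, fewer cells of a type and less RNA per cell cannot be told apart.

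Of the 12 probe sets, 11 were above background on all 4 arrays and the Fosb probe set on none. No member differed between SIN1 KO and wild type past the adjusted threshold of 0.05 in limma's test over all 45037 probe sets (Benjamini-Hochberg adjusted p 0.82 to 1). That test called 0 probe sets in all, or 0% of those tested. At an unadjusted threshold of 0.05 it passed 2 of the 12 members, Fos and 1 of the Jun probe sets, against 5.57% of all tested probe sets.

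**Figure D1:**
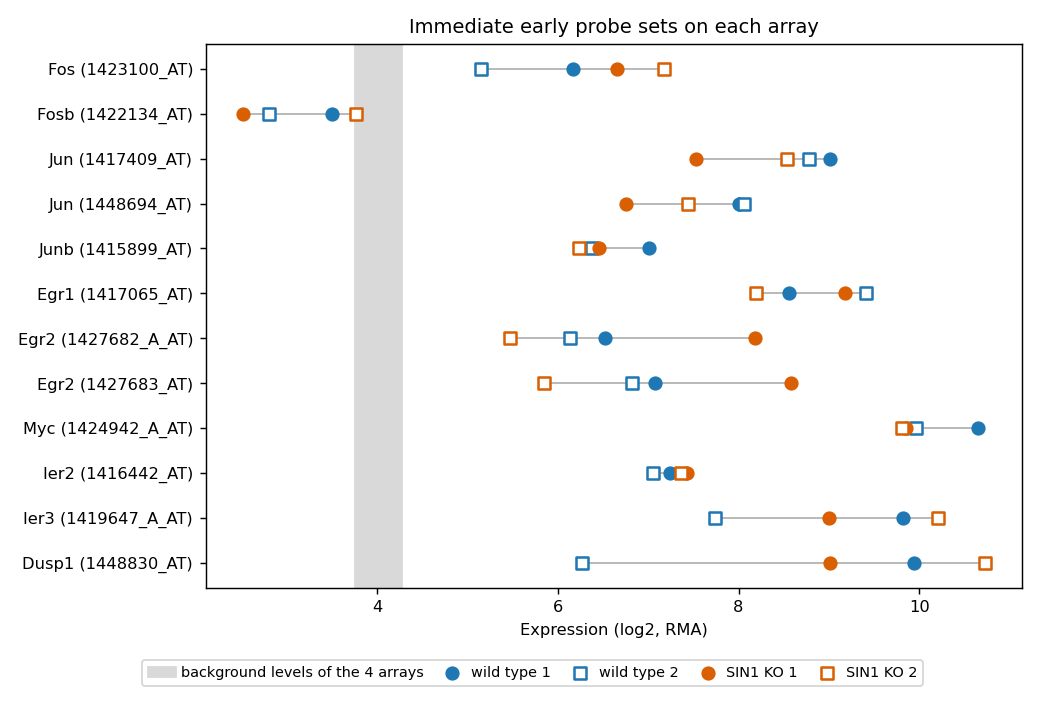
Log2 expression of each immediate early probe set (rows) on the 4 arrays (blue for wild type, orange for SIN1 KO; filled circles for number 1, open squares for number 2), with the range of background levels in grey. The Fosb values lie at or below the background of their arrays, and the Dusp1 values spread over 4.47 log2 units.

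Promoters of these genes were searched for known response elements, and those of the genes that turned on single arrays are shown here. RefSeq promoter sequences of build GRCm38.p6, from 250 bases before to 50 bases after a start site, were matched for 7 of the 10 genes, all but Egr1, Myc and Ier2. Capitals mark motifs found on either strand: the cAMP response element CRE (TGACGTCA), its core (TGACG), the AP-1 site (TGANTCA), the TATA box (TATAAA) and the CArG box to which SRF binds. The core is part of the full CRE and was counted in it too. Fos, Dusp1 and Ier3 are shown as the 3 genes lowest on wild type 2 by at least 1 log2 unit, and Egr2 for its high value on SIN1 KO 1; these values are given further on. The Fos window is chr12:85473640-85473939 on the plus strand, the Dusp1 window chr17:26508423-26508722 on the minus strand, the Ier3 window chr17:35821463-35821762 on the plus strand and the Egr2 window chr10:67537619-67537918 on the plus strand.
Fos: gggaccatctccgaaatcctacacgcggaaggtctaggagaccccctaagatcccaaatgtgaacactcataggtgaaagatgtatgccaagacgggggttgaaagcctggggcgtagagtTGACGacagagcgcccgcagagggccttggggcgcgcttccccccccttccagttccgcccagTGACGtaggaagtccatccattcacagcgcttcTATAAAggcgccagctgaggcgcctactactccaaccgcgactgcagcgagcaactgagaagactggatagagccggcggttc
Dusp1: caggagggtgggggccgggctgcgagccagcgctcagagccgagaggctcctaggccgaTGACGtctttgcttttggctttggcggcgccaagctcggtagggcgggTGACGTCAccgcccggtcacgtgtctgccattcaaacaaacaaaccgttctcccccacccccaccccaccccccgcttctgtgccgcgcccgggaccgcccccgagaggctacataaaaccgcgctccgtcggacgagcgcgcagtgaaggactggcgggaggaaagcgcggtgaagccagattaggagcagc
Ier3: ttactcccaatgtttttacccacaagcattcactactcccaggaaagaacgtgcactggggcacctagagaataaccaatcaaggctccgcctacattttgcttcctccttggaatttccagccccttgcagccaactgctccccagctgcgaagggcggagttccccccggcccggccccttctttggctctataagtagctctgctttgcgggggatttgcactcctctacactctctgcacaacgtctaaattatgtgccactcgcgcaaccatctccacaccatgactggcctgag
Egr2: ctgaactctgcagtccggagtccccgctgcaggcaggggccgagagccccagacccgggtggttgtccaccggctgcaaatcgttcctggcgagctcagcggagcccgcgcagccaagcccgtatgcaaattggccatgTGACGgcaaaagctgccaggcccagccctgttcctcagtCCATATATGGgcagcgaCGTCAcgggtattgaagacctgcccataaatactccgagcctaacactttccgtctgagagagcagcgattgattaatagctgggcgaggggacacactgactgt

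The Dusp1 window held the full CRE, which 1.79% of all 32851 promoter windows held, and a further core upstream of it. The Fos window held 2 cores and a TATA box, and the Egr2 window a CArG box between 2 cores. Of the windows not shown, that of Fosb held 1 core and that of Junb 1 core and 1 TATA box. In all, 5 of the 7 genes had a core and 2 a TATA box in at least 1 window, so neither was particular to the genes shown. The core was found in 20.8% of all windows, the TATA box in 13.6% and the CArG box in 1.63%. Egr2 has 5 listed start sites, and the window shown is the first of those with the most matches. Because it was picked by its matches, the shares of all windows are not a like comparison for it. Of the 5 windows, 4 had a CArG box, some of them overlapping, and the window from 67535249 held none of these motifs. The windows of Ier3 and Jun held none of these letters, and no window of the 7 genes held the AP-1 site, which 7.81% of all windows held. A match describes the letters of the window only, and sites farther upstream were not searched. A link between these motifs and the array values was not tested.

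Fos and Jun proteins pair to form AP-1, a transcription factor that drives growth and matrix remodelling genes. The Fos probe set read 6.17 and 5.15 for wild type 1 and 2, against 6.65 and 7.18 for SIN1 KO 1 and 2. Both SIN1 KO arrays lay above both wild type arrays, with a gap of 0.49 between the groups. Wild type averaged 5.66 ± 0.72 and SIN1 KO averaged 6.92 ± 0.37 (SD, n = 2). The difference was 1.26 log2 units (SE 0.46, 95% interval 0.03 to 2.48), or 2.39-fold, with an unadjusted limma p of 0.0462 and an adjusted p of 0.82. A difference of at least this size was found in 5.41% of all tested probe sets. It was 0.75 without wild type 2, the lowest array, and 1.76 without wild type 1.

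Jun, the partner that can also pair with itself, had the opposite order. Probe set 1448694_AT read 8.01 and 8.06 for wild type, against 6.75 and 7.44 for SIN1 KO 1 and 2. Probe set 1417409_AT read 9.01 and 8.78 for wild type, against 7.53 and 8.54 for SIN1 KO 1 and 2. In both, the SIN1 KO arrays lay below the wild type arrays, and SIN1 KO 1 was the lowest array. The difference was -0.94 (SE 0.34, 95% interval -1.84 to -0.03) for 1448694_AT, with an unadjusted limma p of 0.045 and an adjusted p of 0.82. For 1417409_AT it was -0.86 (SE 0.42, 95% interval -2.00 to 0.28), with an adjusted limma p of 0.82. The mean of both probe sets differed by -0.90 (SE 0.38). Without SIN1 KO 1 the differences were -0.59 and -0.36.

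The other AP-1 members showed smaller differences. Junb, a Jun relative that often restrains Jun activity, read 7.01 and 6.38 for wild type, against 6.45 and 6.24 for SIN1 KO, so the groups overlapped. Its difference was -0.35 (SE 0.33, 95% interval -1.24 to 0.54), and -0.03 without wild type 1. Fosb, a Fos relative, read 3.50 and 2.80 for wild type, against 2.51 and 3.77 for SIN1 KO, at or below the background level on every array. No difference is read from Fosb, since both genotypes were at background.

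Egr1 and Egr2 encode zinc finger transcription factors that follow ERK signalling, and Egr2 is best known for its role in myelin formation and hindbrain patterning. Egr1 read 8.56 and 9.41 for wild type, against 9.18 and 8.20 for SIN1 KO 1 and 2. The groups overlapped, with wild type 2 highest and SIN1 KO 2 lowest. The difference of -0.30 (SE 0.50, 95% interval -1.64 to 1.05) was 0.13 without wild type 2 and 0.20 without SIN1 KO 2. It was 0.03 after a scaling to the hybridisation controls, bacterial and phage transcripts added to every sample. That scaling moved the median of all tested probe sets from 0.04 to 0.36.

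Egr2 was spread widely by the SIN1 KO arrays. Probe set 1427682_A_AT read 6.52 and 6.13 in wild type, 8.18 in SIN1 KO 1 and 5.47 in SIN1 KO 2. Probe set 1427683_AT read 7.08 and 6.82 in wild type, 8.58 in SIN1 KO 1 and 5.85 in SIN1 KO 2. In both, the wild type arrays lay close together, with SIN1 KO 1 above them and SIN1 KO 2 below. The SIN1 KO arrays differed from each other by 2.71 and 2.73 log2 units, and the wild type arrays by 0.39 and 0.26. The order with SIN1 KO 1 highest and SIN1 KO 2 lowest was found in 4.75% of all tested probe sets. The genotype differences of 0.50 (SE 0.96) and 0.27 (SE 0.96) became -0.86 and -1.10 when SIN1 KO 1 was left out. They were 1.86 and 1.63 when SIN1 KO 2 was left out.

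Myc encodes a transcription factor that promotes ribosome production and cell growth. It read 10.65 and 9.97 for wild type, against 9.86 and 9.81 for SIN1 KO 1 and 2. Both SIN1 KO arrays lay below both wild type arrays, by a gap of 0.11, and the SIN1 KO arrays were 0.05 apart. The difference was -0.48 (SE 0.34, 95% interval -1.38 to 0.42), with an adjusted limma p of 0.82. Without wild type 1, the highest array, it was -0.13. With arrays scaled to the hybridisation controls it was -0.16 and the groups overlapped.

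Ier2 and Ier3 are small proteins of the early response, and Ier3 is known as a survival factor induced by stress and by NF-kB. Ier2 varied least of the 12 probe sets: it read 7.24 and 7.05 for wild type, against 7.43 and 7.36 for SIN1 KO, with the SIN1 KO arrays above by a gap of 0.12. Its range of 0.38 over the 4 arrays was reached or passed by 84.1% of tested probe sets. The difference was 0.25 (SE 0.25, 95% interval -0.43 to 0.92). Ier3 read 9.83 and 7.73 for wild type, against 9.00 and 10.20 for SIN1 KO 1 and 2. The groups overlapped, because wild type 1 lay above SIN1 KO 1. The difference of 0.82 (SE 0.85, 95% interval -1.46 to 3.10) was -0.22 without wild type 2, 1.87 without wild type 1, 0.22 without SIN1 KO 2 and 1.42 without SIN1 KO 1.

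Dusp1 encodes a phosphatase that acts on p38, JNK and ERK, and it spread the most of all 12 probe sets. It read 9.94 in wild type 1, 6.27 in wild type 2, 9.01 in SIN1 KO 1 and 10.73 in SIN1 KO 2. Wild type 2 was thus 2.74 log2 units below the next array, and SIN1 KO 2 the highest. A range of at least 4.47 over the 4 arrays was found in 0.673% of tested probe sets. Wild type averaged 8.10 ± 2.60 and SIN1 KO averaged 9.87 ± 1.22 (SD, n = 2). The difference of 1.77 (SE 1.39, 95% interval -1.97 to 5.50) had an adjusted limma p of 0.824. Without wild type 2 it was -0.07, and without wild type 1 it was 3.60. Leaving out SIN1 KO 2 gave 0.91 and leaving out SIN1 KO 1 gave 2.63, so its size moved with every array. On the same arrays, named control probe sets for Gapdh and beta-actin ranged over at most 0.47. Those for the transferrin receptor ranged over 2.00 to 2.28 and were highest on wild type 2. The 4 for pyruvate carboxylase ranged over 0.90 to 1.49 and the one for the B1 repeat over 1.36, all highest on SIN1 KO 2. The part of these differences between arrays in the Dusp1 values was not tested.

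**Figure D2:**
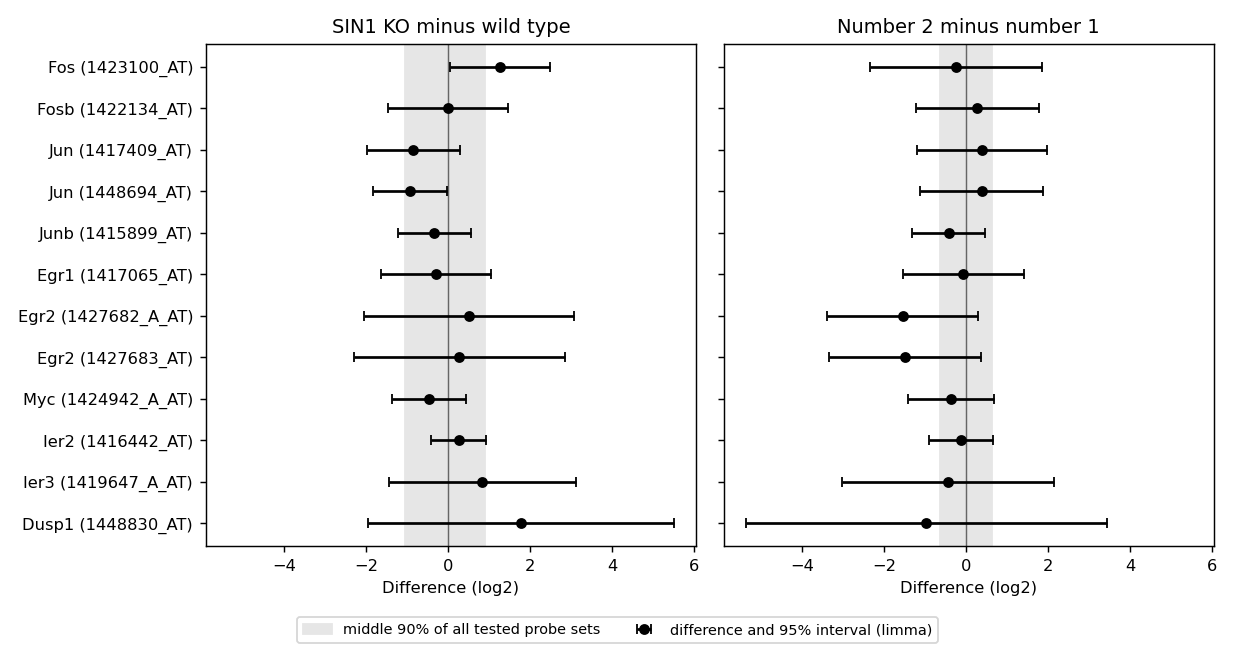
Differences in log2 expression with 95% intervals from limma for SIN1 KO minus wild type (left) and for the number 2 minus the number 1 arrays (right), with the middle 90% of all tested probe sets in grey. On the left, the intervals of Fos (0.03 to 2.48) and of 1 Jun probe set (-1.84 to -0.03) lie to one side of 0; on the right every interval includes 0.

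Across the 12 probe sets, 6 differences were positive and 6 negative, with Fosb, at background, among the negative ones. The median was 0.12, against 0.04 over all tested probe sets, and the median size was 0.49, against 0.31. The values over all tested probe sets include the many at or below background. The sign of the median turned with single arrays: it was -0.15 without wild type 2 and -0.41 without SIN1 KO 1, but 0.34 without wild type 1 and 0.21 without SIN1 KO 2. It was 0.25 under a median-level filter, which dropped Fosb. Groups did not overlap for 5 of the 12: Fos and Ier2 with SIN1 KO higher, and both Jun probe sets and Myc with SIN1 KO lower. That is 41.7% of the members, while 35.3% of all tested probe sets had groups that did not overlap (20.4% higher and 14.9% lower in SIN1 KO). With a gap of at least 0.5 log2 units, a limit chosen after seeing the data, 1 of the 12 members was left, the Jun probe set 1448694_AT, against 5.8% of all tested probe sets. Fos, with its gap of 0.49, fell just short. The genotype difference was larger in size than both differences between arrays of one genotype for 3 probe sets, Fos, Jun 1448694_AT and Ier2, or 25% of members. The same held for 22.4% of all tested probe sets. With 2 arrays against 2, an exact permutation test of a single probe set cannot go below p = 0.333.

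The number 2 arrays were set against the number 1 arrays, over both genotypes, as a check of culture state. The labels do not say what the number stands for. By limma, 0 members and 0% of all tested probe sets passed the adjusted threshold, and 0 members passed an unadjusted threshold of 0.05 against 1.02% of all. Of the 12 differences, 9 were negative, and their median was -0.31, against 0.01 over all tested probe sets. Without wild type 2, 5 of the 12 were negative and the median was 0.05. Groups did not overlap for 3 probe sets, all lower on the number 2 arrays, against 9.34% of all tested probe sets in that direction, 10.4% in the other and 19.7% in either. They were Junb and both probe sets of Egr2. The Egr2 differences were -1.55 (SE 0.67) and -1.49 (SE 0.67) log2 units, with an adjusted limma p of 1. Differences of at least this size occurred in 0.759% and 0.899% of tested probe sets. Without SIN1 KO 1 they were -0.72 and -0.74.

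The number did not have the same direction in both genotypes for 6 of the 12 probe sets (Fosb, at background, among them), or 50% of members, against 64% of all tested probe sets. Dusp1 differed by -3.67 between wild type 2 and wild type 1, and by 1.72 between SIN1 KO 2 and SIN1 KO 1. For Ier3 the same differences were -2.09 and 1.20, and for Fos -1.02 and 0.52. Egr1 ran the other way, at 0.85 between the wild type arrays and -0.98 between the SIN1 KO arrays. Differences of at least 1 log2 unit and opposite sign in the genotypes were found for 2 members, Dusp1 and Ier3, and for 4.86% of all tested probe sets. The genotype difference depended on the number: for Dusp1 it was -0.93 between the number 1 arrays and 4.47 between the number 2 arrays. For Ier3 these values were -0.83 and 2.47, for Fos 0.49 and 2.03, and for Egr1 0.62 and -1.21. For both Egr2 probe sets they were positive between the number 1 arrays (1.66 and 1.50) and negative between the number 2 arrays (-0.66 and -0.97). A dependence on the number of at least the same size was found in 0.386% of all tested probe sets for Dusp1 and 2.28% for Ier3. For the Egr2 probe sets these shares were 7.71% and 6.37%, for Egr1 13.8% and for Fos 19.1%. With 1 array for each genotype and number, this dependence has no test.

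**Figure D3:**
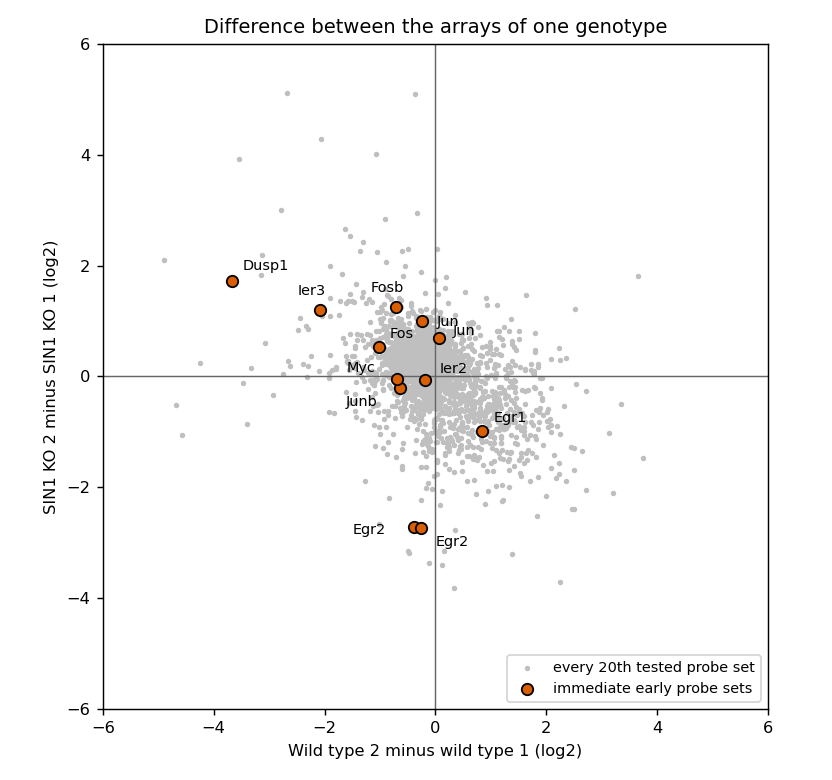
Difference between the wild type arrays (horizontal, wild type 2 minus wild type 1) and between the SIN1 KO arrays (vertical, SIN1 KO 2 minus SIN1 KO 1) in log2 units, for the immediate early probe sets (orange) and every 20th tested probe set (grey). Dusp1 and Ier3 lie far to the upper left, and both Egr2 probe sets lie far down near the vertical axis.

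The 12 probe sets did not move as one group over the arrays. Likeness was measured as the root mean square distance between log2 values centred on each probe set's mean, over 4 arrays. The probe sets of one gene lay close together, at 0.13 for Egr2 and 0.16 for Jun. Between genes, Junb and Myc were nearest, at 0.09: both were highest on wild type 1, with the other arrays close together below it. The distance was not scaled to the range of a probe set, so probe sets with small ranges lie closer. Junb and Myc ranged over 0.78 and 0.85 log2 units, against 4.47 for Dusp1, so distances are not a like comparison of pattern between them. Dusp1 had Ier3 as its nearest member, at 0.76, and Ier3 had Fos, at 0.50. These 3 genes were lowest on wild type 2 and highest on SIN1 KO 2, an order found in 3 of the 12 members (25%) and in 22.6% of all tested probe sets. Wild type 2 was the lowest by at least 1 log2 unit in all 3, a limit set with these values known. Fos passed it narrowly, with wild type 2 minus wild type 1 at -1.02. With SIN1 KO 2 highest, this held for 1.56% of all tested probe sets, a share that is no test of these 3 genes. Egr2 and Egr1 were among the members farthest from Dusp1, at 2.05 to 2.13. Among all tested probe sets the 3 nearest to Dusp1 were 1416455_A_AT, 1435191_AT and 1434369_A_AT, at 0.09, 0.17 and 0.18. The files do not pair these with genes. The nearest of them read 10.76, 6.86, 9.75 and 11.55 on wild type 1, wild type 2, SIN1 KO 1 and SIN1 KO 2. By the same measure Ier3 ranked 168 among all probe sets and Fos 884.

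**Figure D4:**
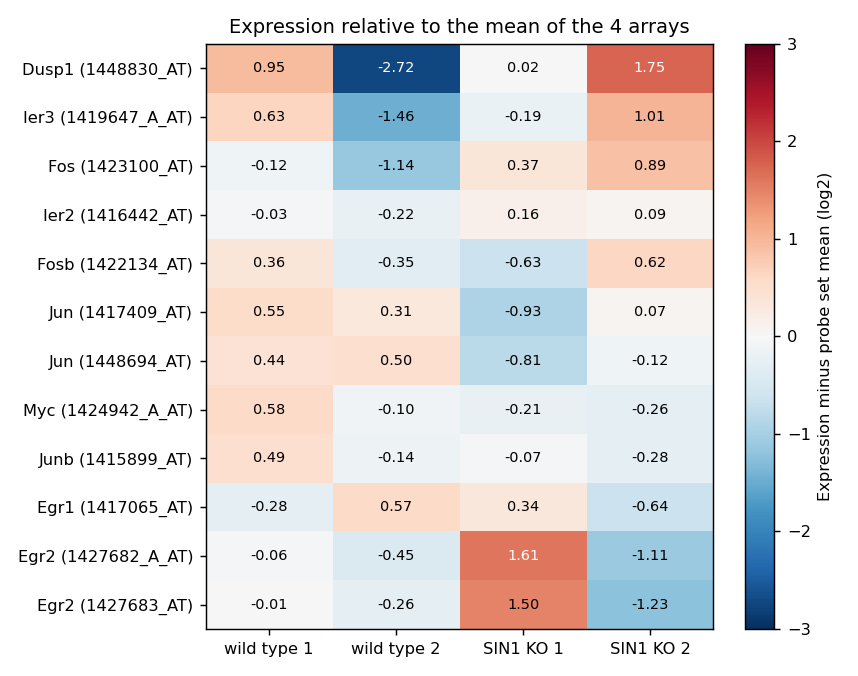
Log2 expression of each immediate early probe set minus its mean over the 4 arrays (columns), red above and blue below that mean. Dusp1, Ier3 and Fos share their lowest value on wild type 2 (-2.72, -1.46 and -1.14), while both Egr2 probe sets peak on SIN1 KO 1 (1.61 and 1.50).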

How the data were processed

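Per the submitters' processing notes, the authors made the deposited log2 values with RMA, whose version is not given in the sources used here. The log2 scale was taken from the range of the values. Members were paired with probe sets by the numbers in the list, since the table names no genes. All members were named, and the likeness rule was the root mean square distance given above. The members, lists and alternatives were chosen with earlier results of these data known.

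Of 45101 probe sets, 64 control probe sets were left out. The other 45037 were fitted with limma 3.58.1 in R 4.3.3 (lmFit, eBayes without trend), with Benjamini-Hochberg adjustment over all of them and two-sided tests. Residual degrees of freedom were 2, to which the variance prior added 2.38 (genotype) or 2.14 (number). Precision is limited by the number of arrays: the genotype difference had a median standard error of 0.33. The fit was tested on simulated data. Their noise was drawn independently for each value, so they lack the shared differences between arrays seen here. Groups and numbers came from the sample titles. The alternatives tried were a median-level filter, 3 scalings, trended and robust priors, a background floor, a threshold of 0.01, blocks, 1 value per gene and leaving out each array. Figures were drawn with matplotlib 3.10.9. Gene lists planned for other pathway genes and cell type markers were not analysed here, as no table used here names their probe sets.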

Additional observations from a re-analysis of the deposited data

Results flagged for a closer look

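Dusp1 and Ier3 differed between the number 1 and number 2 arrays in opposite directions in the genotypes, by at least 1 log2 unit in each, a minimum chosen after the values were seen. The Dusp1 difference was -3.67 between the wild type arrays (2 minus 1) but 1.72 between the SIN1 KO arrays. The Ier3 difference was -2.09 between the wild type arrays but 1.20 between the SIN1 KO arrays. Each value rests on 1 array against 1, and the difference between the genotypes was not tested.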

How the results depend on the processing

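The number of members past the adjusted threshold was 0 in both comparisons under all alternatives but one. With values raised to the background level, 1 member passed for SIN1 KO against wild type: Dusp1, at an unchanged 1.77 (adjusted limma p 0.0268). By its construction that setting gives much of the table near-equal values, and the fit then used 1 common variance for every probe set, so the standard error of Dusp1 went from 1.39 to 0.50. It called 788 probe sets in all. The filter at the median level called 5 probe sets and no member. Members past the unadjusted threshold numbered 2 for the genotype (5.57% of all tested probe sets). They numbered 0 with the filter (5.88%), the trended prior (5.58%), a threshold of 0.01 (1.16%) or the replicate number as a block (2.87%). With cyclic loess (5.84%), hybridisation control scaling (12.8%) or 1 value per gene (5.57%) the count was 1. They numbered 0 to 4 when 1 array was left out: 2 without wild type 1 (8.6% of all tested probe sets), 0 without wild type 2 (2.79%), 1 without SIN1 KO 1 (7%) and 4 without SIN1 KO 2 (2.48%). The lone array of a group is there assumed to vary like the other group. For the number comparison there were 0 (1.02% of all), but 2 with hybridisation control scaling (0.879%) or the background floor (1.29%). The count for the number comparison also moved with the array left out. It rests on the same assumption about the lone array, so no number is read from it. The labels do not say whether the numbers pair the arrays, and this was not tested. Deviations of same-numbered arrays from their group means correlated at r = -0.415 across probe sets. The replicate block called 0 members past the adjusted threshold. The crossed pairing as a block, chosen after seeing the data, called 0 past the adjusted and 3 past the unadjusted threshold, where it called 14.1% of all tested probe sets against 5.57% without a block. The count of members whose groups did not overlap was 5. It was 4 with hybridisation control scaling, where the Myc groups overlapped, and 1 with a gap of at least 0.5.

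Fosb, at background, has no difference to follow. Of the other members, Egr1 changed sign: it was 0.025 under hybridisation control scaling, and for the number comparison 0.032 under cyclic loess. The cause was not tested. With 1 array left out, genotype differences ran from -0.069 to 3.60 for Dusp1, -0.22 to 1.87 for Ier3, -0.79 to 0.20 for Egr1, and -0.86 to 1.86 and -1.10 to 1.63 for Egr2. Those of Fos (0.75 to 1.76), Ier2 (0.15 to 0.34), Jun (-1.36 to -0.36 and -1.28 to -0.59), Junb (-0.67 to -0.03) and Myc (-0.82 to -0.13) kept their sign. For the number comparison they ran from -3.21 to 1.26 for Dusp1, -1.68 to 0.79 for Ier3, -1.26 to 0.77 for Fos, -0.35 to 1.12 and -0.25 to 1.00 for Jun, -0.67 to 0.54 for Egr1, -0.77 to 0.029 for Myc and -0.28 to 0.028 for Ier2. All 11 members above background stayed so on every array with the 95th percentile of the controls or a margin of 1 log2 unit.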
